A study of Rattus norvegicus with 12 samples.

Results

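Glutathione transferases and glutathione peroxidases were followed in the testis of prepubertal Sprague-Dawley rats under 2 dietary proteins, with and without estradiol. The 10 genes were fixed by name: the alpha class transferases Gsta3 and Gsta4, the mu class Gstm1, Gstm2 and Gstm5, the pi class Gstp1, the theta class Gstt1, the membrane-bound Mgst1, and the peroxidases Gpx3 and Gpx4. A probe set was a member when 1 of these was its only gene symbol in the platform annotation. This gave 11 probe sets, of 20832 on the array with a single symbol. Gpx4 had 2 and every other gene had 1. The 10 genes are among 14218 that have such a probe set.

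All rats were male, and casein diets were fed through lactation. From postnatal day 21 to 33 they ate a semi-purified AIN-93G diet made with casein, or the same diet with SPI in place of casein (here soy). In each diet a further group received 17beta estradiol under the skin from an osmotic pump, at 10 µg per kg per day. Testes were frozen on postnatal day 34 and total RNA was hybridised to Affymetrix rat arrays, with 3 arrays in each of the 4 groups and 12 in all. The labels name no genetic alteration in any group. The labels do not say whether each array held a separate animal or a pool, so every p-value here measures only the spread between these arrays. Values are log2 intensities, on which a difference of 1 is a doubling.

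Glutathione transferases join the tripeptide glutathione to reactive, electron-poor molecules, among them breakdown products of oxidised lipids, and so make them soluble and harmless. Glutathione peroxidases use glutathione to reduce hydrogen peroxide and lipid hydroperoxides. In the testis, Gpx4 is a selenium-containing enzyme of developing spermatids that later becomes a structural protein around the sperm mitochondria, while several transferases are abundant in Leydig and Sertoli cells. Many genes of this kind elsewhere in the body are switched on by the transcription factor Nrf2 (gene Nfe2l2) through a DNA motif called the antioxidant response element.

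Promoter sequences were taken from RefSeq, build GRCr8, for 9 of the 10 genes; Gstt1 had no entry in the promoter table. The 120 bases before the start site are shown for the members that were called under estradiol or lay next to the threshold, because the estradiol results turn on these genes. Letters run 5′ to 3′ on the gene's strand. Capitals mark matches, on either strand, to the core of the antioxidant response element, TGACNNNGC, or to a half-site of the estrogen response element, GGTCA.
Gsta4, chr8:87947145-87947264, plus strand: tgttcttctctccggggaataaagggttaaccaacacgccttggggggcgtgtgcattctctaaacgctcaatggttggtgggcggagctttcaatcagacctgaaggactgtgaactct
Gstm1, chr2:198343384-198343503, minus strand: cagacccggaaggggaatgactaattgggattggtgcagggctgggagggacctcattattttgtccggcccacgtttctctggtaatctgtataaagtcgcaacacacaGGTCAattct
Gstm2, chr2:198316918-198317037, minus strand: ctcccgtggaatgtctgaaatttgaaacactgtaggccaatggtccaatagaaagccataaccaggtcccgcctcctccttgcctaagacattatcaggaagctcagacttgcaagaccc
Gstp1, chr1:210769706-210769825, minus strand: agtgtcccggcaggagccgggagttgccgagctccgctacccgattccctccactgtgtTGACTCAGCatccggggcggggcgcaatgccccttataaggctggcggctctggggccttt
Mgst1, chr4:172760810-172760929, plus strand: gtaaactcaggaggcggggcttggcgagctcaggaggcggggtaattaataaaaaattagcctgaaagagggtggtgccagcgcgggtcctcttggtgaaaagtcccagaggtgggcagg
Gstm5, chr2:198219649-198219768, plus strand: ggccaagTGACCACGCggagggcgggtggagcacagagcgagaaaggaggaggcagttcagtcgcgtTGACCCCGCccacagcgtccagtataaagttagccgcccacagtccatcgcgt
Gpx4, first of 3 start sites, chr7:10303630-10303749, minus strand: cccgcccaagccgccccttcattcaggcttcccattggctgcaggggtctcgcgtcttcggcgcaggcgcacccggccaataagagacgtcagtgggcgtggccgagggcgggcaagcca

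Whole promoter windows, which reach from upstream of the start site to shortly after it, were searched on both strands. The Gstp1 window held 1 antioxidant response element core, TGACTCAGC, whose first base lay at -61 from the start site. Gstm5 held cores at -113 and -53, and the first bases of each also read as a half-site on the other strand. Of the 2 windows of Gsta3, the first had a core at -17. A half-site stood at -10 in Gstm1, and the window of the last start site of Gpx4 had half-sites at -112, -94 and -88. The searched letters were not found in the windows of Gsta4, Gstm2, Mgst1 or Gpx3. A core was present in 12.065% of 33469 rat promoter windows and a half-site in 40.506%. The full estrogen response element, GGTCA and TGACC with 3 bases between them, occurred in 9 windows, 0.027%, and in none of the members'. These matches describe letters in the windows and no binding was measured here. Gstm1, Gstm2 and Gstm5 all lie on chromosome 2, and their probe sets could share signal between close relatives, which was not tested.

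Medians of the deposited arrays ran from 6.72 to 6.79 log2, while their lower quartiles differed by up to 0.164 and their upper quartiles by up to 0.183. After quantile normalization, arrays of a group correlated at 0.988 to 0.997. The tissue label was checked against cell markers. In the casein group, Prm1 of spermatids averaged 14.57, Insl3 of Leydig cells 12.33 and Ctsl of Sertoli cells 10.53 log2, so the defining cells of testis were present. A few arrays carried transcripts of other tissues. Adam7, an epididymal gene, stood at 9.39 in replicate 1 of soy plus estradiol and at 5.17 to 6.03 elsewhere, while Acta1 of skeletal muscle reached 10.37 in replicate 2 of casein plus estradiol against 4.99 to 6.24 elsewhere. Adipocyte markers varied more widely. Their summed log2 level was 9.46 to 9.58 on casein, 9.70 to 10.89 on casein with estradiol, 9.65 to 10.93 on soy and 9.99 to 11.14 on soy with estradiol, with the highest values in replicate 3 of soy plus estradiol and in soy replicate 2. Of 5 adipocyte markers tested, 2 rose under estradiol on casein, 1 rose and 1 fell under estradiol on soy, and 1 rose on soy against casein. The part of fat, muscle or epididymal RNA in the members' changes was not tested.

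Gsta3, an alpha class enzyme, lay below the level at which probe sets were tested, which was 5.69 log2. It stood at 4.84, 3.58 and 3.22 on casein, at 3.35, 3.47 and 3.52 on casein with estradiol, at 3.57, 4.01 and 3.63 on soy, and at 3.80, 3.54 and 3.51 on soy with estradiol. All groups overlapped and no test was made. The other 10 probe sets were tested.

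Under estradiol on the casein diet, Mgst1 rose and Gstt1 fell, and the other 8 member probe sets did not pass the threshold. On the soy diet Gsta4, Gstm1, Gstm2, Gstp1 and Mgst1 rose and both probe sets of Gpx4 fell. The changes were small, at most 1.38-fold. No member was called for soy alone, and no member's estradiol effect was shown to differ between the diets. A probe set was called at a Benjamini-Hochberg adjusted p under 0.05 in the limma fit over all 21729 probe sets tested.

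**Figure D1:**
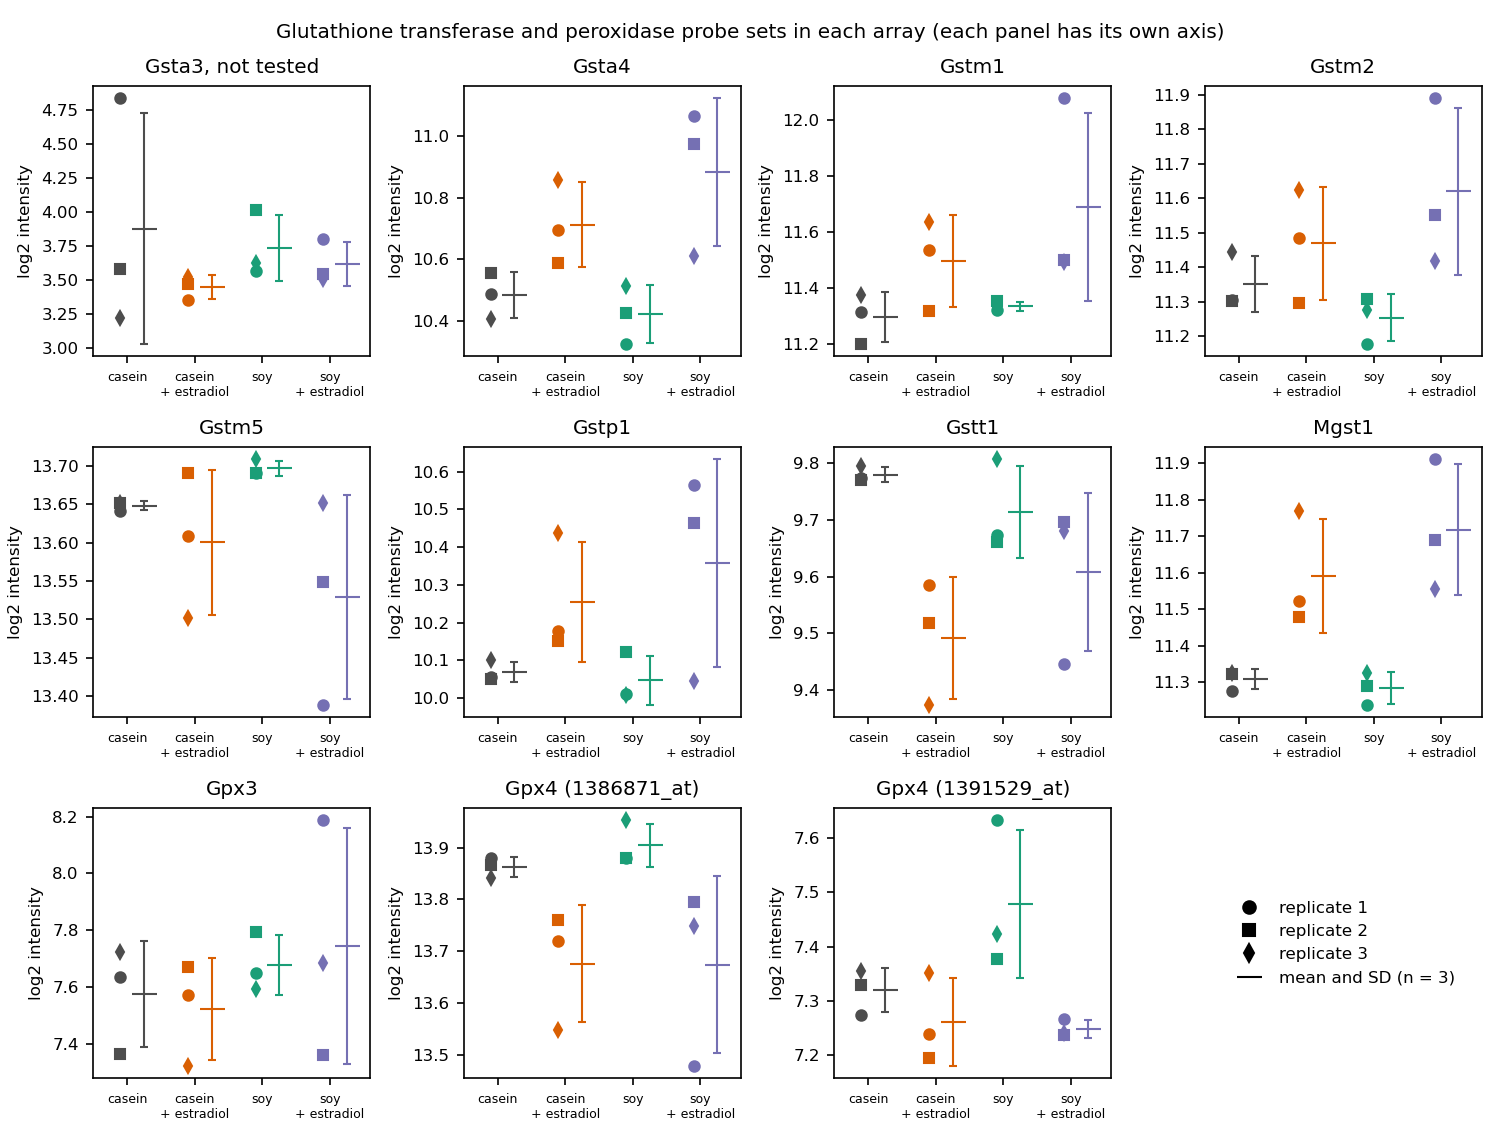
Log2 intensity of each member probe set in each array, by diet and estradiol, with 1 panel per probe set and its own vertical axis. Symbols mark replicates, and the horizontal line and bar give mean and SD of 3 arrays. In Mgst1 every array with estradiol lies above every array without it.

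Mgst1, a trimeric enzyme of the endoplasmic reticulum and outer mitochondrial membrane that is activated when its cysteine is modified, moved on both diets. Its probe set 1367612_at read 11.28, 11.32 and 11.32 on casein and 11.52, 11.48 and 11.77 on casein with estradiol. It read 11.24, 11.29 and 11.33 on soy and 11.91, 11.69 and 11.56 on soy with estradiol. All 6 arrays with estradiol lay above all 6 without it. On casein the rise was 0.28 (SE 0.09), 1.22-fold, with adjusted p = 0.0297. On soy the rise was 0.43 (SE 0.09), 1.35-fold, with adjusted p = 0.00282. The soy call was kept in every alternative run. The casein call was lost without any 1 of the 3 casein arrays or without replicate 3 of casein plus estradiol, which gave adjusted p up to 0.136, and with the deposited values not quantile normalized, which gave 0.16 and adjusted p = 0.169. On arrays centred on their medians the casein difference was 0.12, with adjusted p = 0.307.

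Gsta4, an alpha class enzyme with high activity toward 4-hydroxynonenal, a toxic aldehyde from oxidised lipids, rose on soy. The probe set 1372297_at read 10.33, 10.43 and 10.51 on soy and 11.06, 10.97 and 10.61 on soy with estradiol, and the groups did not overlap. The difference was 0.46 (SE 0.11), 1.38-fold, with adjusted p = 0.00513, and it was called in every alternative run. Gsta4 read 10.49, 10.56 and 10.41 on casein and 10.69, 10.59 and 10.86 with estradiol. These groups did not overlap either, yet the difference of 0.23 (SE 0.11) gave adjusted p = 0.117 and was not called.

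The mu class pair Gstm1 and Gstm2, soluble enzymes that conjugate many foreign and endogenous electrophiles, gave like values. Gstm2 (1370952_at) read 11.18, 11.31 and 11.28 on soy and 11.89, 11.55 and 11.42 on soy with estradiol, with no overlap. It rose by 0.37 (SE 0.11), 1.29-fold, with adjusted p = 0.0182. That call was lost without soy replicate 1 or without replicate 1 of soy plus estradiol, with adjusted p = 0.0663 and 0.0638. Without the latter array the Gstm2 difference was 0.23. Gstm1 (1386985_at) read 11.32, 11.35 and 11.33 on soy and 12.08, 11.50 and 11.49 on soy with estradiol. Its groups did not overlap, but 1 array, replicate 1 with estradiol, stood well above the others. That array was the one with raised Adam7. Gstm1 rose by 0.35 (SE 0.14), 1.28-fold, with adjusted p = 0.0447, and without that array the difference was 0.16 and not called, with adjusted p = 0.156. The Gstm1 call was lost in 8 of the 12 fits that left out 1 array. Some of these left out an array of the casein diet, which does not enter this difference. There it stayed at 0.35, and adjusted p was at most 0.0581. The call was also lost without quantile normalization (adjusted p = 0.0516) and on arrays centred on their medians (adjusted p = 0.0552). The same held without the filter (adjusted p = 0.052) and with only the soy groups in the fit (adjusted p = 0.0951).

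On casein neither of the pair was called. Gstm1 read 11.31, 11.20 and 11.37 on casein and 11.53, 11.32 and 11.64 with estradiol, a difference of 0.20 (SE 0.14) with adjusted p = 0.253. Gstm2 read 11.30, 11.30 and 11.44 on casein and 11.49, 11.30 and 11.62 with estradiol. Both pairs of groups overlapped. The Gstm2 difference was 0.12 (SE 0.11) with adjusted p = 0.423, and it turned to -0.03 where arrays were only centred on their medians.

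Gstp1, the pi class enzyme, is best known from tumours, where it is often raised or silenced. Its probe set 1388122_at read 10.01, 10.12 and 10.01 on soy and 10.56, 10.46 and 10.05 on soy with estradiol. The groups overlapped, because replicate 3 with estradiol stayed at the level of soy alone. The rise of 0.31 (SE 0.12), 1.24-fold, had adjusted p = 0.0455. Its call was lost in 9 of the 12 fits that left out 1 array, with adjusted p up to 0.165. Where the array left out was of the casein diet, the difference stayed at 0.31 and adjusted p was at most 0.0604. The call was also lost without the filter (adjusted p = 0.0527) and with only the soy groups in the fit (adjusted p = 0.101). Without replicate 1 of soy plus estradiol the difference was 0.21. On casein it read 10.05, 10.05 and 10.10, and 10.18, 10.15 and 10.44 with estradiol. There the groups did not overlap, and the difference of 0.19 (SE 0.12) had adjusted p = 0.226.

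Gstm5 is a mu class enzyme known from testis and brain. Its probe set lay at percentile 99.9 of mean level. Quantile normalization sets values by rank, and at this level the same value recurred in several arrays. Probe set 1370813_at read 13.64, 13.65 and 13.65 on casein, 13.61, 13.69 and 13.50 on casein with estradiol, 13.69, 13.69 and 13.71 on soy, and 13.39, 13.55 and 13.65 on soy with estradiol. The soy groups did not overlap, with every array under estradiol lower, and the casein groups did. The differences were -0.17 (SE 0.07) on soy, with adjusted p = 0.0573, and -0.05 (SE 0.07) on casein, with adjusted p = 0.600. Neither was called. Without replicate 1 of soy plus estradiol the soy difference was -0.10. The soy value became -0.21, with adjusted p = 0.023, with the deposited values not quantile normalized. The casein value became -0.19, with adjusted p = 0.0498, on arrays centred on their medians.

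Gstt1, the theta class enzyme, acts on small halogenated molecules. It read 9.77, 9.77 and 9.80 on casein and 9.58, 9.52 and 9.37 on casein with estradiol in probe set 1368354_at, with no overlap. It fell by 0.29 (SE 0.08), 1.22-fold, with adjusted p = 0.0159. Leaving out casein replicate 3 or replicate 3 of casein plus estradiol ended that call, with adjusted p up to 0.0747, and the other alternatives kept it. On soy Gstt1 read 9.67, 9.66 and 9.81, and 9.45, 9.70 and 9.68 with estradiol, which overlapped. The difference there was -0.11 (SE 0.08) with adjusted p = 0.306. The change of the estradiol effect from casein to soy was 0.18 (SE 0.12), with adjusted p = 0.397, so a difference between diets was not shown for Gstt1.

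Gpx4 reduces phospholipid hydroperoxides within membranes and is the enzyme whose loss permits ferroptosis. Its probe set 1386871_at read 13.88, 13.87 and 13.84 on casein and 13.72, 13.76 and 13.55 on casein with estradiol. It read 13.88, 13.88 and 13.95 on soy and 13.48, 13.80 and 13.75 on soy with estradiol. All 6 arrays with estradiol lay below all 6 without it. The fall on soy was by 0.23 (SE 0.08), 1.17-fold, with adjusted p = 0.0311. The casein difference of -0.19 (SE 0.08) had adjusted p = 0.0798 and was not called. This probe set, like that of Gstm5, lay at percentile 99.9 of mean level. Scaling mattered here, since without quantile normalization the casein difference was -0.28 with adjusted p = 0.00924. The soy call was lost without any 1 of the soy arrays or without replicate 1 of soy plus estradiol, with adjusted p up to 0.119. Without that last array the difference was -0.13. The soy call was also lost with only the soy groups in the fit (adjusted p = 0.0783).

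The second Gpx4 probe set, 1391529_at, gave other array values. It read 7.28, 7.33 and 7.35 on casein, 7.24, 7.19 and 7.35 on casein with estradiol, 7.63, 7.38 and 7.42 on soy, and 7.27, 7.24 and 7.24 on soy with estradiol. The soy groups did not overlap and the casein groups did. Its fall on soy was by 0.23 (SE 0.08), 1.17-fold, with adjusted p = 0.0246. Without soy replicate 1 or replicate 3 of soy plus estradiol the call was lost, with adjusted p up to 0.116. It was also lost without quantile normalization, at -0.16 (adjusted p = 0.0976), on arrays centred on their medians, at -0.17 (adjusted p = 0.0718), and with only the soy groups in the fit (adjusted p = 0.0755). On casein its difference was -0.06 (SE 0.08), with adjusted p = 0.566. Across the 12 arrays the 2 Gpx4 probe sets deviated from their group means with r = -0.42, so they did not rise and fall together within groups.

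Gpx3, the secreted peroxidase of plasma, did not pass the threshold under estradiol. Probe set 1369926_at read 7.64, 7.37 and 7.72 on casein and 7.57, 7.67 and 7.32 with estradiol. It read 7.65, 7.79 and 7.59 on soy and 8.19, 7.36 and 7.69 with estradiol. Both pairs of groups overlapped, and the spread with estradiol on soy was the widest of the tested members (SD 0.42). The differences were -0.05 on casein (95% interval -0.43 to 0.32, adjusted p = 0.827) and 0.07 on soy (95% interval -0.31 to 0.44, adjusted p = 0.766). The highest array was the one with raised Adam7, and without that array the soy difference was -0.16 with adjusted p = 0.369.

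**Figure D2:**
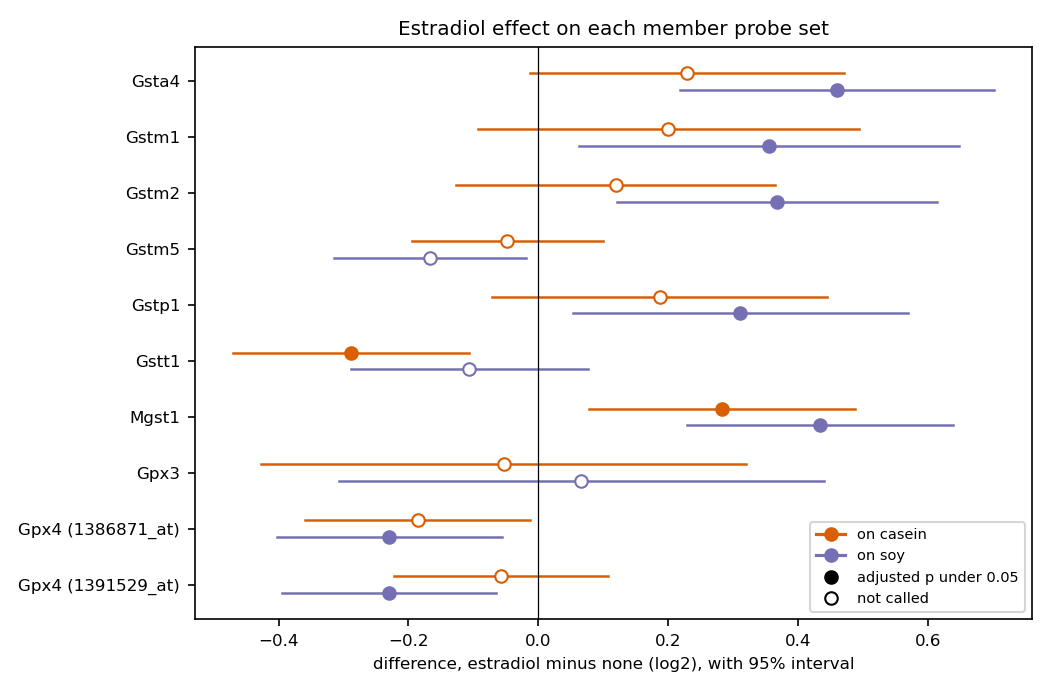
Difference in log2 intensity, estradiol minus none, for the 10 tested member probe sets on casein and on soy, with 95% intervals from the limma fit. Filled symbols have an adjusted p under 0.05. On soy 5 filled symbols lie above 0 and 2 below, and on casein 1 lies on each side.

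Counted together, estradiol changed 2 of 10 member probe sets on casein, 1 up and 1 down. Over all 21729 probe sets 41.8% were called, 21.9% higher and 19.9% lower. Of the called ones 52.5% were higher, and 40.9% were on arrays only centred on their medians. The members' groups did not overlap in 5 of 10, against 60.0% of all probe sets. The median difference of the members was 0.04 log2, and 0.02 over all probe sets. On soy 7 of 10 were called, 5 up and 2 down, against a background of 49.5%, with 25.3% higher and 24.3% lower. Groups were apart in 7 of 10 members and in 57.3% of all probe sets. The members' median difference on soy was 0.19 and that of all probe sets -0.02. The median size of a member's difference, whatever its sign, was 0.186 on casein and 0.27 on soy, beside 0.204 and 0.239 for all probe sets. The 2 estradiol comparisons use different arrays.

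These counts rest on few arrays. The casein count of 2 became 1 without casein replicate 1 or 2, and 0 without casein replicate 3 or replicate 3 of casein plus estradiol. It was 5, made up of Gsta4, Gstm1, Mgst1, Gstt1 and Gpx4 probe set 1386871_at, with replicate 2 of casein plus estradiol and replicate 1 of soy plus estradiol both left out. The soy count of 7 became 2 without soy replicate 1, 4 without soy replicate 2 or 3, and 3 without replicate 1 of soy plus estradiol. With the arrays of raised Acta1 and raised Adam7 both left out it was 4, and Gstp1 then stood at 0.21 with adjusted p = 0.162. The arrays with the highest adipocyte marker levels, replicate 3 of soy plus estradiol and soy replicate 2, stayed in that fit. Some casein differences depended on scaling. Without quantile normalization they were 0.09 for Gsta4, 0.08 for Gstm1, 0.008 for Gstm2 and 0.08 for Gstp1, none of them called.

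The interaction, which is the change of a gene's estradiol effect when soy replaces casein, was tested directly and was called for 0 of 10 members by limma, with 0 of 10 at an unadjusted p under 0.05 and 3.41% of all probe sets called. The largest such differences were 0.25 for Gstm2 (95% interval -0.10 to 0.60, adjusted p = 0.392) and 0.23 for Gsta4 (95% interval -0.11 to 0.57, adjusted p = 0.417). The adjusted p-values of the members ran from 0.374 to 0.852. The 7 calls on soy and 2 on casein are therefore not shown to be a difference between diets.

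Soy against casein without estradiol gave 0 of 10 members called by limma, and 0 of 10 had an unadjusted p under 0.05. Of all probe sets 9.73% were called, and 68.0% of these were higher on soy, a share that was 49.5% without quantile normalization and 36.7% on arrays centred on their medians. Gstm5, at 0.05 (95% interval -0.10 to 0.20, adjusted p = 0.735), and Gpx4 probe set 1391529_at, at 0.16 (95% interval -0.01 to 0.32, adjusted p = 0.218), were the 2 members whose groups did not overlap, each higher on soy. Of all probe sets 37.4% did not overlap in this comparison. The 95% interval of this difference ran from -0.23 to 0.18 for Mgst1 and from -0.25 to 0.12 for Gstt1. Under estradiol, soy against casein again called 0 of 10 members, with 0 of 10 at an unadjusted p under 0.05, and 0.00460% of all probe sets. The largest member difference there was 0.22 for Gpx3 (95% interval -0.15 to 0.60, adjusted p = 0.603).

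Estradiol moved cell markers in the same arrays. Of 14 spermatid markers tested, 13 fell on casein and 12 on soy. Their summed level, in log2, was 17.11 to 17.19 on casein, 16.22 to 16.75 on casein with estradiol, 17.11 to 17.16 on soy and 16.40 to 16.83 on soy with estradiol. Of 13 Sertoli cell markers tested, 9 rose and 1 fell on casein, and 11 rose on soy. The summed Sertoli level was 14.11 to 14.16 on casein, 14.82 to 15.09 with estradiol, 14.08 to 14.17 on soy and 14.53 to 15.22 with estradiol. Of 10 Leydig cell markers 5 fell and 1 rose on casein, and 6 fell and 2 rose on soy, and their summed level went from 13.86 to 13.94 down to 13.36 to 13.80 on casein, and from 13.80 to 13.95 down to 13.49 to 13.73 on soy. Of 8 macrophage markers 5 fell on casein, and 2 fell and 1 rose on soy. Beside these marker counts, 41.8% of all probe sets were called on casein and 49.5% on soy. All spermatid and Leydig markers on the array lay above the level of the filter, and 1 of 14 Sertoli and 3 of 11 macrophage markers lay below it. In bulk RNA, fewer cells of a type and less RNA per cell cannot be told apart. The part of these markers in the members' changes was not tested.

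Of the 10 tested probe sets, 5 were highest of their estradiol group and 3 lowest in the same 2 arrays. Gsta4, Gstm1, Gstm2, Gstp1 and Mgst1 were highest in replicate 3 of casein plus estradiol and in replicate 1 of soy plus estradiol, and Gstm5, Gstt1 and Gpx4 probe set 1386871_at were lowest there. Gpx3 and Gpx4 probe set 1391529_at did not follow, since Gpx3 was lowest in the first of these arrays and highest in the second, and the Gpx4 probe set was highest in both. In these arrays the mean spermatid marker level was 11.85 and 12.07 log2, the lowest of all 12. The other arrays with estradiol lay at 12.32 to 12.58 and those without it at 12.91 to 13.01. The mean Sertoli marker level of these 2 arrays was 9.49 and 9.55, against 9.24 to 9.35 in the other arrays with estradiol and 8.64 to 8.76 without it. Replicate 1 of soy plus estradiol was also the array with raised Adam7. The part of foreign tissue or of these markers in the members' values there was not tested.

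**Figure D3:**
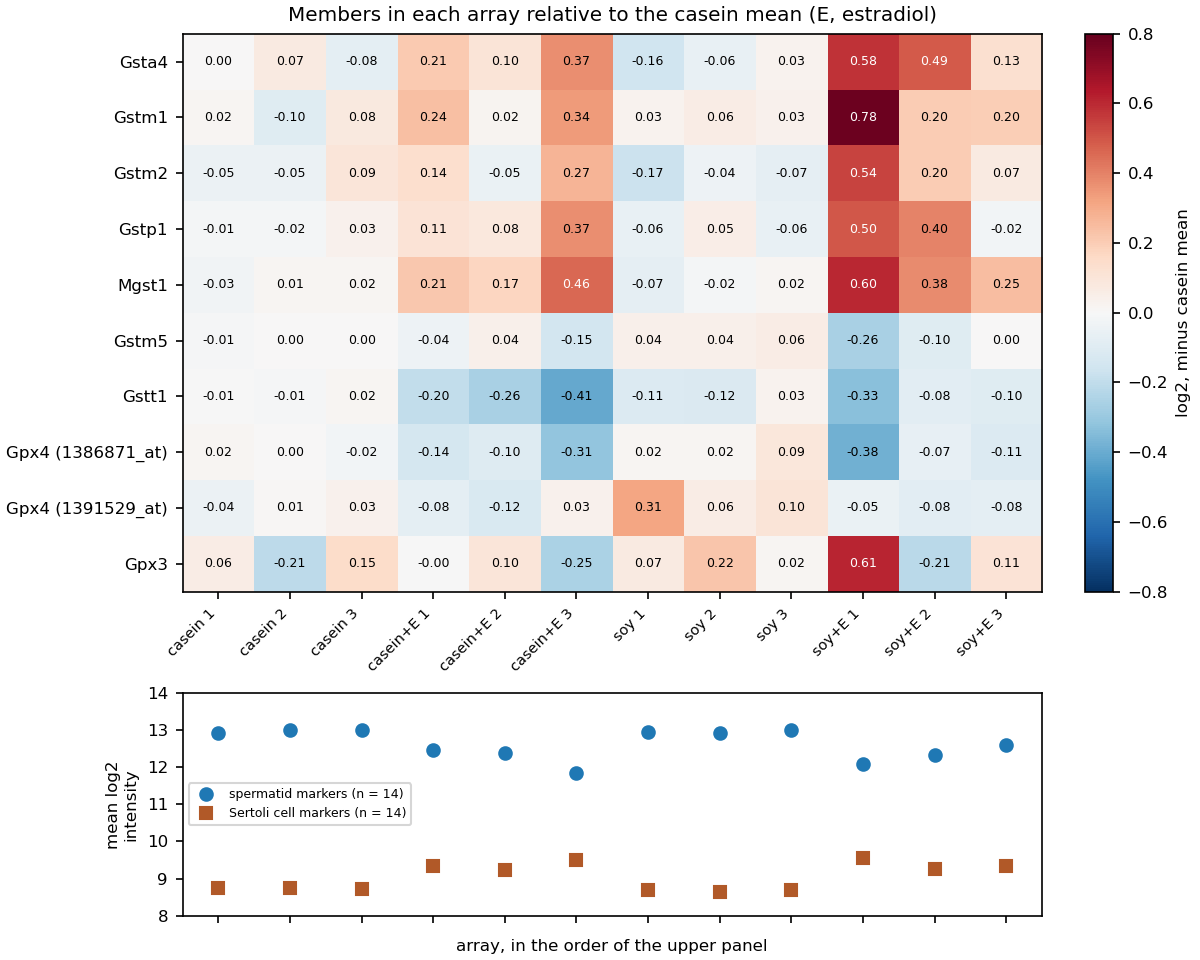
Upper panel, log2 intensity of each tested member probe set in each array minus its mean on casein, in colour and figures, where E stands for estradiol. Lower panel, mean log2 intensity of 14 spermatid and 14 Sertoli cell markers in the same arrays. Replicate 3 of casein plus estradiol and replicate 1 of soy plus estradiol hold the lowest spermatid means, 11.85 and 12.07, and in the 5 uppermost rows each is the highest array of its group.

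Deviations from group means were compared between members over the 12 arrays. They correlated at r = 0.93 for Gstm1 with Gstm2, at r = 0.86 for Gsta4 with Mgst1, at r = 0.87 for Gstp1 with Mgst1 and at r = 0.92 for Gstt1 with Gpx4 probe set 1386871_at. Mgst1 and Gstm5 ran opposite ways, with r = -0.94. With the 2 arrays of lowest spermatid level left out of the correlation, these values were 0.85, 0.82, 0.78, 0.77 and -0.83. For these and the following pairs, deviations were still taken from group means that include those 2 arrays. Their influence was therefore not fully removed. Other pairs depended on those arrays. Leaving them out took r from 0.59 to 0.27 for Gsta4 with Gstm1, from -0.52 to -0.03 for Gsta4 with Gpx4 probe set 1386871_at, from -0.74 to -0.24 for Gstt1 with Mgst1, from -0.67 to -0.15 for Gstt1 with Gstm2 and from -0.45 to 0.05 for Gstt1 with Gsta4. With Gsta4, Gpx3 gave -0.06 and Gpx4 probe set 1391529_at gave 0.04 over all arrays. The points share arrays and their normalization, so these values are a description only. Without those 2 arrays Mgst1 was called on both diets, at 0.19 on casein (adjusted p = 0.0264) and 0.34 on soy (adjusted p = 0.00129), and Gstt1 on casein at -0.23 (adjusted p = 0.0179). In that fit 5 of the 7 soy calls were kept, and those of Gstm1, at 0.16 (adjusted p = 0.0983), and Gstp1, at 0.21 (adjusted p = 0.115), were lost.

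Genes most like Gstt1 and Mgst1 across the 12 arrays were found by Pearson r, for the members with the smallest p on casein and on soy. For Gstt1 they were Lrrc51 (r = 0.965), C3h20orf144, Taf10, the protamine Prm3 and Rph3a (each r = 0.961). Without the 2 arrays of lowest spermatid level their r lay between 0.893 and 0.932, over 10 arrays. For Mgst1 they were Eif4b, a translation initiation factor (r = 0.992), Pfn1, an actin-binding protein (r = 0.989), the peroxiredoxin Prdx2 (r = 0.989), the cytochrome oxidase subunit Cox8a (r = 0.988) and Hprt1 of purine salvage (r = 0.988). Their r without those arrays lay between 0.974 and 0.989. All these values include the differences between groups, and all arrays share 1 normalization.

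**Figure D4:**
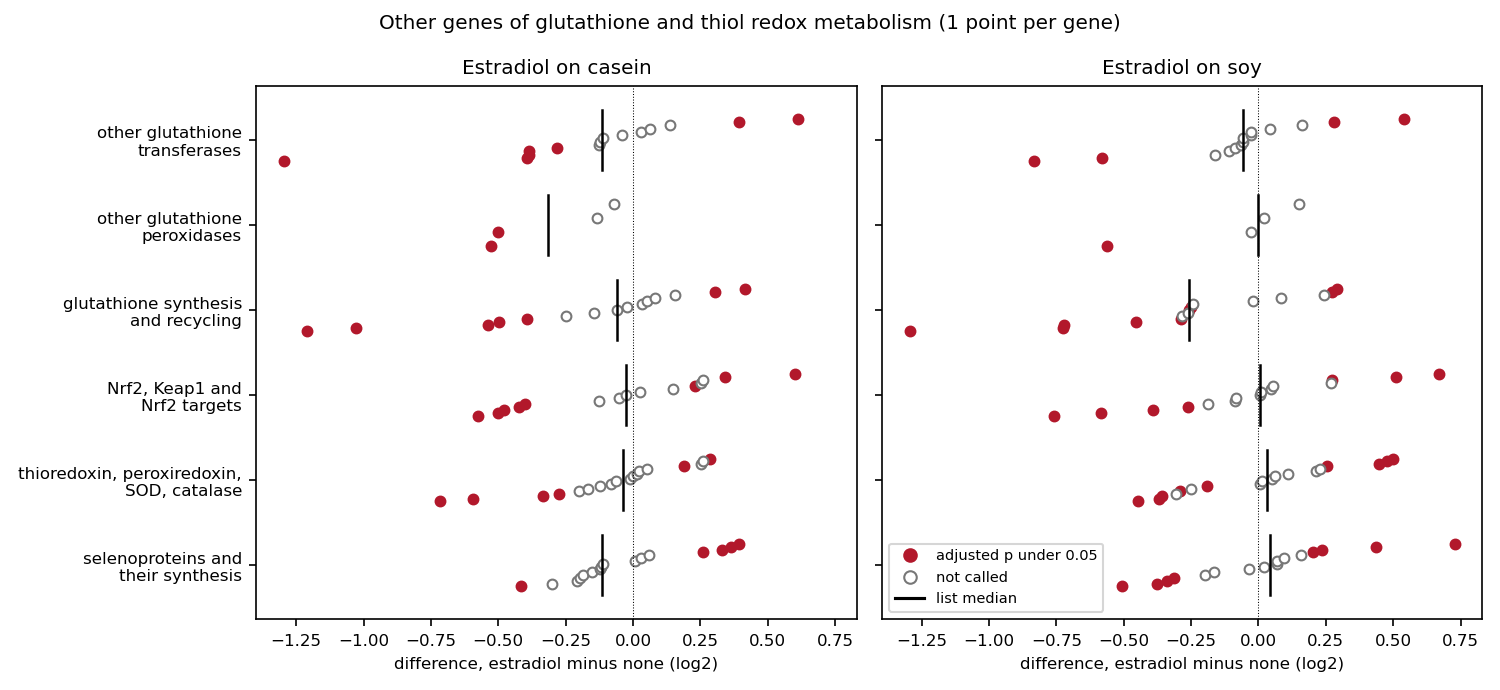
Difference in log2 intensity, estradiol minus none, of every tested gene in 6 lists of glutathione and thiol redox metabolism, on casein (left) and soy (right). Each point is 1 gene, filled where its adjusted p is under 0.05, and the vertical bar is the list's median. Filled points lie on both sides of 0 in every list but the other glutathione peroxidases, where they lie below 0.

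Among 14 other transferases on the array, estradiol raised 2 and lowered 5 on casein, and raised 2 and lowered 2 on soy, with medians of -0.12 and -0.06. Beside this and the list counts that follow, 41.8% of all probe sets were called on casein and 49.5% on soy. Gstcd, which carries a transferase-like C-terminal domain, fell by 1.30 on casein (SE 0.18, adjusted p = 0.000336) and by 0.83 on soy (SE 0.18, adjusted p = 0.0031). The zeta class Gstz1, which also takes part in tyrosine breakdown, fell by 0.39 on casein and the membrane enzyme Mgst2 by 0.39, and on soy they stood at -0.16 and -0.06 and were not called. Gsto2, an omega class enzyme that reduces dehydroascorbate, fell by 0.39 on casein and by 0.58 on soy. Gstm7, another mu class gene, rose by 0.61 on casein (adjusted p = 0.0049) and by 0.54 on soy (adjusted p = 0.00812). Of 4 other peroxidases tested, Gpx1 fell by 0.50 on casein (adjusted p = 0.00195) and Gpx6 fell on both diets, by 0.53 and 0.56. Gpx1, the abundant cytosolic selenoenzyme, read 9.20, 9.13 and 9.28 on casein and 8.49, 8.83 and 8.79 with estradiol, which did not overlap. On soy it read 8.78, 9.01 and 8.96, and 8.95, 8.93 and 8.78 with estradiol, a difference of -0.03 with adjusted p = 0.82. The change of the Gpx1 effect between diets was 0.47 (SE 0.14) with adjusted p = 0.0823 and was not called.

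Glutathione itself is made from glutamate, cysteine and glycine, and cystine enters through the exchanger Slc7a11. Of 15 genes of synthesis and recycling tested, 2 rose and 5 fell on casein, and 2 rose and 7 fell on soy, with medians of -0.06 and -0.26. Slc7a11 read 8.66, 9.10 and 8.83 on casein and 7.44, 7.85 and 7.66 with estradiol. It read 8.73, 8.62 and 8.60 on soy and 7.44, 7.16 and 7.47 with estradiol. All 6 arrays with estradiol lay below all 6 without it, and it fell by 1.21 (SE 0.13, adjusted p = 5.48e-05) and by 1.29 (SE 0.13, adjusted p = 6.16e-05). Ggt7, of the gamma-glutamyltransferase family, fell by 0.50 and 0.72, and Oplah, the 5-oxoprolinase that recovers glutamate, fell by 1.03 and 0.72, on casein and soy in turn. The dipeptidase Dpep1 fell by 0.46 on soy and stood at -0.15 on casein, which was not called.

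In the fit of quantile normalized values over all arrays, Chac1 and Chac2 were the only genes of the 6 lists called between soy and casein without estradiol. Both are cyclotransferases that break glutathione down. The 6 lists held 14, 4, 15, 15, 18 and 16 tested genes, and 9.73% of all probe sets were called in this comparison. Other genes depended on scaling. Gpx1 (-0.29, adjusted p = 0.0857), Hpgds, Scly, Txnrd1 and Glrx were not called in that fit. Each was called with the deposited values not quantile normalized and on arrays centred on their medians. Hpgds was higher on soy and the others lower. Chac1 and Chac2 kept their calls under both scalings. Chac1 read 7.23, 7.26 and 7.32 on casein and 7.58, 7.50 and 7.70 on soy, and it rose by 0.33 (SE 0.07, adjusted p = 0.0115). Chac2 read 6.95, 6.98 and 7.13 on casein and 6.73, 6.62 and 6.35 on soy, and it fell by 0.45 (SE 0.11, adjusted p = 0.0238). Neither pair of groups overlapped. Without soy replicate 3 both calls were lost, at adjusted p = 0.0503 and 0.0983, and the Chac2 call was also lost without casein replicate 2 or 3. Both were called in the interaction too, at -0.41 for Chac1 (adjusted p = 0.0412) and 0.64 for Chac2 (adjusted p = 0.0474). Of all probe sets 3.41% were called in the interaction. That comparison shares the casein and soy arrays with the one before.

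Nrf2, its inhibitor Keap1 and Nrf2 targets gave 15 tested genes. Of these, 3 rose and 5 fell on casein, and 3 rose and 4 fell on soy, with medians of -0.03 and 0.007. Over all probe sets 21.9% rose and 19.9% fell on casein, and 25.3% rose and 24.3% fell on soy. The exporter Abcc1, which pumps glutathione conjugates out of cells, rose by 0.60 (SE 0.08, adjusted p = 0.000237) and 0.67 (SE 0.08, adjusted p = 0.000114), and the carbonyl reductase Cbr1 rose by 0.34 and 0.51. The thioredoxin reductase Txnrd1 fell by 0.42 on casein and by 0.26 on soy, and the quinone reductase Nqo1 fell by 0.50 and 0.58 (adjusted p = 0.00318 and 0.00109). Nfe2l2 itself differed by 0.17 between soy and casein, with adjusted p = 0.238. In alternative runs that difference went down to 0.0004, with adjusted p up to 0.997. With only the casein and soy groups in the fit it was called.

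In the thioredoxin, peroxiredoxin, superoxide dismutase and catalase list, 2 of 18 rose and 4 fell on casein, and 4 rose and 5 fell on soy, with medians of -0.04 and 0.03. The glutaredoxins Glrx, Glrx2 and Glrx3, which use glutathione to reduce protein disulfides, fell by 0.72, 0.59 and 0.28 on casein. On soy Glrx fell by 0.37 and Glrx3 by 0.19, and Glrx2, at -0.30, was not called. Sod1 rose by 0.19 on casein and 0.50 on soy, and Txnip, an inhibitor of thioredoxin, by 0.29 and 0.45. Prdx2 rose by 0.48 on soy and stood at 0.25 on casein, which was not called. Among 16 genes of selenoproteins and their synthesis, 4 rose and 1 fell on casein, and 4 rose and 4 fell on soy, with medians of -0.12 and 0.04. Trnau1ap, which binds the selenocysteine tRNA, rose by 0.39 on casein (adjusted p = 0.00744) and by 0.73 on soy (adjusted p = 0.000204). The selenocysteine lyase Scly fell by 0.42 on casein and 0.34 on soy. The elongation factor Eefsec fell by 0.38 on soy and the selenium carrier Selenop by 0.51, and on casein they stood at -0.15 and -0.21 and were not called. On casein the counts of these last 2 lists depended on scaling, with 0 rising in the thioredoxin list and 5 falling among the selenoprotein genes when the deposited values were not quantile normalized.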

How the data were processed

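Per the labels, total RNA from testes of 12 rats or pools was hybridised to Affymetrix arrays. The authors deposited log2 probe set intensities made with GCOS, per the submitters' processing notes; their background correction, summarisation and normalization are not given in the sources used here. Their log2 scale was read from the values, which ran from 2.8 to 14.6. Array quartiles differed by up to 0.183, over a limit of 0.15, so the deposited log2 values were quantile normalized. Of 31099 probe sets, 57 controls and the lowest 30% by mean were left out, and 21729 were tested. Annotation gave 20832 probe sets 1 symbol, 436 several and 9831 none, and none was named from several.

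A single linear model over all 12 arrays was fitted with limma 3.58.1 (R 4.3.3), using eBayes with a trend of variance on mean level (8 residual degrees of freedom) and Benjamini-Hochberg adjustment over all probe sets tested in each of 5 comparisons. The median SE of a difference was 0.0923. The number of arrays limits the precision, and an exact two-sided test of 3 against 3 arrays cannot go below p = 0.1. On simulated data for estradiol on casein over 21729 probe sets, 70% of 100 changes of 0.5 log2 and 97% of 100 changes of 1 log2 were recovered, and 6 of 173 calls were false. In the data a far larger share, 41.8%, was called on casein, so these rates need not hold there. Every member difference was smaller than 0.5 log2, a size the simulation did not cover.

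The members, gene lists, marker lists and tests were chosen with earlier results of these data known. The text names every member, in each list the 3 genes of smallest p per estradiol comparison and 2 for soy against casein, shortened from the end, the defining markers, and the 5 genes most like a member; Adam7 was also the only epididymal gene among those tested. Pathway genes with several probe sets were read by the one with the highest mean. Promoters reach from 250 bases before to 50 after the start site (python 3.11.15). Alternatives covered scaling, filter, variance prior, gene means, arrays left out and a replicate block.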

Additional observations from a re-analysis of the deposited data

How the results depend on the processing

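No member's call turned direction in any alternative. Leaving out 1 array at a time, the count of members called ran from 0 to 3 for estradiol on casein and from 2 to 8 for estradiol on soy. It stayed at 0 in soy against casein and in the interaction, and in soy against casein under estradiol. Without replicate 2 of casein plus estradiol (raised Acta1) and replicate 1 of soy plus estradiol (raised Adam7), the counts were 5 on casein and 4 on soy. Arrays with high adipocyte marker levels stayed in that fit. With only the groups of each comparison in the fit they were 4 and 3. Those fits hold fewer arrays, and the causes of the changed counts were not tested.

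The labels number the replicates 1 to 3 in every group, but same-numbered arrays did not deviate together: over 18 such pairs the median r was -0.00455, with 4 above 0.1. A fit with a replicate block called 2 members on casein and 6 on soy, Gstp1 being lost, and 0 in the other comparisons. The number of arrays and the unstated processing of the deposited values limit these results, and signal over background was not given for single probe sets.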
